A study of Mus musculus with 4 samples.

Results

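The genes described here were the receptors that bind the constant (Fc) part of antibodies, and the membrane adaptors and kinase that carry their signal. They were taken by gene symbol, and the 8 members, all of them found among the 24346 genes listed, were Fcgr1, Fcgr3, Fcgr4, Fcgr2b, Fcgrt, Fcer1g, Tyrobp and Syk. Messenger RNA was sequenced from the liver of male ob/ob mice, which lack functional leptin and become obese. The mice were 6 weeks old at the start and were fed for 4 weeks on chow (CD), CD with 0.01% 7-ketocholesterol (CD+7KC), a western type diet rich in fat and sucrose (WD), or WD with the same amount of 7-ketocholesterol (WD+7KC). 7-ketocholesterol (7KC) is an oxidation product of cholesterol, and both base diets held 1% cholesterol, so that every group shared the genotype and the added cholesterol. Each of the 4 groups was 1 library, the number of mice behind a library was not stated in the sources used here, and no value below has a replicate check. Levels are given as FPKM (fragments scaled to transcript length and to the fragments sequenced), and the addition of 7KC to each diet was the question behind the comparisons.

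Receptors for IgG let macrophages and other myeloid cells bind and engulf antibody-coated particles. The activating receptors of the mouse, encoded by Fcgr1, Fcgr3 and Fcgr4, hold no signalling motif of their own and use the common gamma chain, the product of Fcer1g, whose ITAM (immunoreceptor tyrosine-based activation motif) recruits the kinase Syk after phosphorylation. Tyrobp encodes DAP12, a second ITAM adaptor that serves other myeloid receptors, Fcgr2b encodes the inhibitory receptor with an ITIM that recruits phosphatases, and Fcgrt encodes the neonatal receptor FcRn, which pairs with beta-2-microglobulin and returns IgG and albumin to the circulation. In the liver, Kupffer cells carry the activating receptors, sinusoidal endothelial cells are rich in Fcgr2b, and hepatocytes are a main site of Fcgrt.

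The members lay on 4 chromosomes of the mouse genome (GRCm38), and 4 of them were near each other on chromosome 1. Fcgr2b was at chr1:170958617-170976547 on the minus strand, Fcgr4 at chr1:171018920-171029761 on the plus strand, Fcgr3 at chr1:171051174-171064935 on the minus strand and Fcer1g at chr1:171229572-171234365 on the minus strand. Fcgr1 was at chr3:96282909-96293969 and Fcgrt at chr7:45092990-45103851, both on the minus strand. Tyrobp was at chr7:30413760-30417585 and Syk at chr13:52583173-52648792, both on the plus strand.

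Promoter sequences from RefSeq (GRCm38.p6), each reaching from 250 bases before to 50 bases after an annotated start, were held for 7 of the 8 members in 9 entries. The promoters of the IgG receptors are shown because the 3 activating receptors and the inhibitory receptor differed in their pattern over the libraries. Capitals mark GAGGAA, the core of the purine-rich box read by the myeloid and B cell factor PU.1, or its reverse complement TTCCTC, where present. The windows were chr3:96293920-96294219 for Fcgr1, chr1:171059354-171059653 for Fcgr3 and chr1:170976022-170976321 for Fcgr2b, all on the minus strand, and chr1:171018676-171018975 on the plus strand for Fcgr4.
Fcgr1: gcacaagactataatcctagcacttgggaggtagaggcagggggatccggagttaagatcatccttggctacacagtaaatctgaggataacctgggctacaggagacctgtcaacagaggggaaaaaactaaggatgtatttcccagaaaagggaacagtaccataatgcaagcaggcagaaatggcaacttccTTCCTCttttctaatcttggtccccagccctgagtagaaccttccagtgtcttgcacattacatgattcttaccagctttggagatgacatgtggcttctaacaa
Fcgr3: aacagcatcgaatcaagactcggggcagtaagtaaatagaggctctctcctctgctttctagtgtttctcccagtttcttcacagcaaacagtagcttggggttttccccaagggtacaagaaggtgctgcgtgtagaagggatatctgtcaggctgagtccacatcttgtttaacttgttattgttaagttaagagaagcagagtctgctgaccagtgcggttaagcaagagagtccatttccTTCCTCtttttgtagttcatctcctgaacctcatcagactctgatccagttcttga
Fcgr4: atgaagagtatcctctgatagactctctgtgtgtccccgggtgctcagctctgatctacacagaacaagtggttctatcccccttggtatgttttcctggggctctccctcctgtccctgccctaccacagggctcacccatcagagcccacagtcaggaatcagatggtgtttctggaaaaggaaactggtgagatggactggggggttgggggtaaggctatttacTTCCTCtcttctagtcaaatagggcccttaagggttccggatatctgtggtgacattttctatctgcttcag
Fcgr2b: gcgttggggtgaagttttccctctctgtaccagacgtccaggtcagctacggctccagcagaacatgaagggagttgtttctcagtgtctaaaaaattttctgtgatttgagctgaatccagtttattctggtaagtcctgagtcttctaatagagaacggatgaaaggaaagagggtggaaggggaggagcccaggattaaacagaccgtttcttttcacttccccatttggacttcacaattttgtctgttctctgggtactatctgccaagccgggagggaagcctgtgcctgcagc

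Counted from the annotated start, the first base of the box was at -55 in Fcgr1, at -6 in Fcgr3 and at -22 in Fcgr4, each time as TTCCTC on the gene's strand. A second start of Syk held GAGGAA at -9, and a second entry of Fcgr3, whose start lies a few bases further on, held the same letters at -15. The box was therefore in 5 of the 9 entries, from 4 members. The windows of Fcgr2b, Fcer1g and Fcgrt and the first start of Syk did not hold these letters on either strand. Of all 32851 promoter windows of this length, 28.28% held the box, so that a match is a description of the letters and no sign of binding.

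Reads cannot always separate Fcgr3 from Fcgr2b, its inhibitory relative and neighbour on chromosome 1. Of the 1273 windows of 75 bases, the length of a read, in the Fcgr3 mRNA, 94 (7.38%) were identical to a stretch of Fcgr2b mRNA, and the same 94 made up 6.77% of the windows of the shorter Fcgr2b mRNA. Of the 3470 windows of the longer Fcgr2b mRNA, 246 (7.09%) were shared with Fcgr3 or further genes. The longest identical run was 129 bases of coding sequence across exons 3 and 4 of both genes, at positions 313 to 441 of the Fcgr3 mRNA and 402 to 530 of the Fcgr2b mRNA, and it is printed because reads from it fit both genes.
Run shared by Fcgr3 and Fcgr2b: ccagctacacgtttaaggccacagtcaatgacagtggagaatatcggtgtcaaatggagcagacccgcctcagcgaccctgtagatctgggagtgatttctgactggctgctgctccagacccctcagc

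The other members shared no window of 75 bases with another gene. Fcgr2b also overlapped Gm38204, a gene on the opposite strand, over 155 exon bases, and the strand setting used in quantification was not given in the sources used here. Values of Fcgr3 and Fcgr2b are uncertain for these reasons.

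The total depth, read off the steps of the lowest FPKM values, was 9400000 to 12080000 fragments per library, with 14856 to 15246 genes above 0. The sum of FPKM over all genes was 602059 in WD+7KC and between 696062 and 715605 in the others, so that rescaling every library to equal sums (TPM) moved the median gene by 0.21 on the log2 scale when WD+7KC was set against WD, and by 0.20 against CD+7KC. With the deposited values these medians were 0.0021 and 0.0026, and the changes below are given on that scale unless TPM is named. Fold changes are log2 ratios of FPKM + 0.1, which understates changes of low genes. Each has an exact (Clopper-Pearson) 95% interval from the estimated reads, which covers counting error between 2 libraries and not the spread between mice.

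The members ranged from near 1 FPKM to over 100 FPKM, and per length Fcgrt was the most abundant with a mean of 113 FPKM over the 4 libraries. The adaptors followed with means of 62.9 FPKM for Tyrobp and 38.1 FPKM for Fcer1g. Fcgr2b had a mean of 23.0 FPKM, above Fcgr3 at 11.4 FPKM and Fcgr4 at 10.9 FPKM. Fcgr1 at 1.86 FPKM and Syk at 1.81 FPKM were the lowest, and their estimated reads were few in every library. Adaptor transcripts were thus more abundant per length than those of Fcgr1, Fcgr3 and Fcgr4, and the inhibitory receptor was above each single activating receptor on average.

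**Figure D1:**
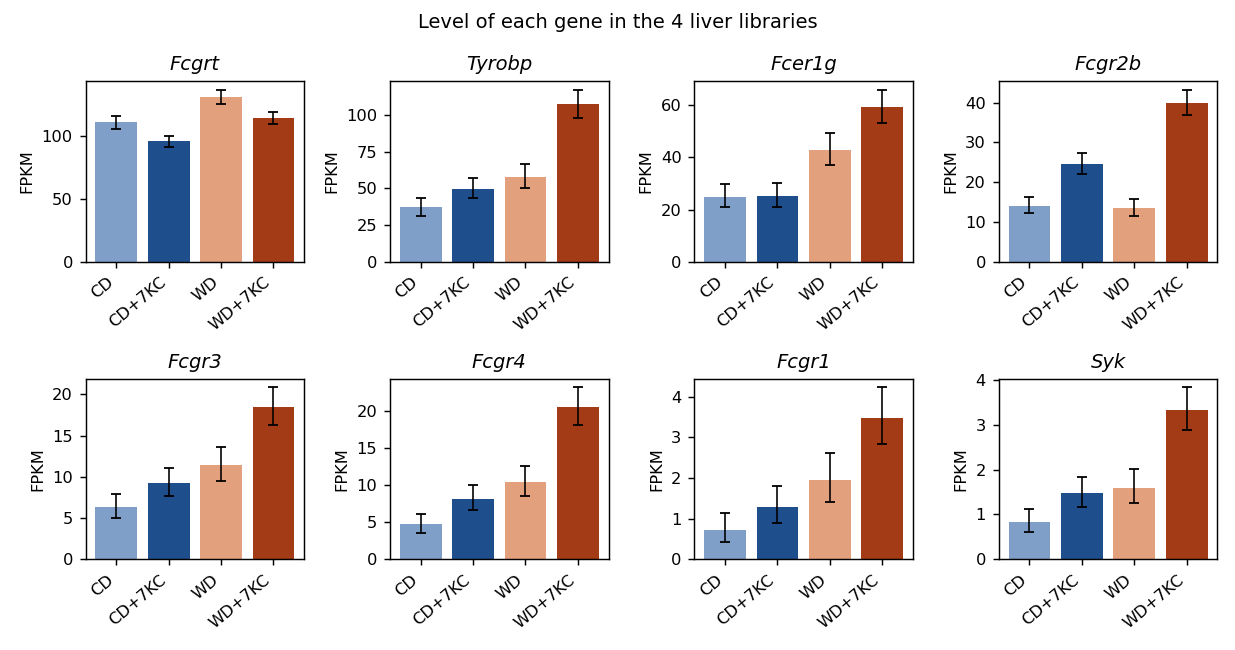
Level of each member (y axis, FPKM, a separate scale for each gene) in each of the 4 libraries, with bars for the value and whiskers for the exact 95% counting interval of 1 library. The panels other than that of Fcgrt have their highest bar in WD+7KC, and Fcgrt has its highest, 131 FPKM, in WD.

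The high-affinity IgG receptor Fcgr1 was at 0.723 FPKM (CD), 1.29 (CD+7KC), 1.95 (WD) and 3.47 (WD+7KC), from an estimated 19, 34, 44 and 100 reads. The WD+7KC library was above the other libraries beyond their counting intervals, while CD, CD+7KC and WD overlapped step by step. Under WD, 7KC went with a log2 fold change of 0.80 (interval 0.30 to 1.37), and under CD with 0.76 (interval -0.014 to 1.73), which included 0. The diet differences were 1.31 (interval 0.63 to 2.29) in WD relative to CD and 1.36 (interval 0.84 to 2.03) in WD+7KC relative to CD+7KC. Their intervals overlapped those of the changes with 7KC.

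Fcgr3, the low-affinity activating receptor, was at 6.33, 9.23, 11.4 and 18.5 FPKM in CD, CD+7KC, WD and WD+7KC, from an estimated 80, 116, 123 and 256 reads. The order of the libraries was the same as for Fcgr1, with WD+7KC separate from the rest. The log2 fold change with 7KC was 0.69 (interval 0.38 to 1.02) under WD and 0.54 (interval 0.11 to 0.96) under CD. WD exceeded CD by 0.84 (interval 0.42 to 1.27) on the log2 scale, and WD+7KC exceeded CD+7KC by 0.99 (interval 0.68 to 1.33).

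Fcgr4, which binds IgG2 subclasses and is found on macrophages, monocytes and neutrophils, was at 4.69, 8.15, 10.4 and 20.5 FPKM in CD, CD+7KC, WD and WD+7KC, from an estimated 54, 94, 103 and 262 reads. Here CD lay below the other libraries and WD+7KC above them, and CD+7KC and WD overlapped. With 7KC the log2 fold change was 0.97 (interval 0.65 to 1.33) under WD and 0.78 (interval 0.30 to 1.31) under CD. The diet differences were 1.13 (interval 0.66 to 1.66) without and 1.32 (interval 0.996 to 1.70) with 7KC. The ratio of Fcgr4 to Fcgr3 FPKM was 0.742 (CD), 0.883 (CD+7KC), 0.913 (WD) and 1.11 (WD+7KC), given without a counting interval. In every comparison the counting intervals of the changes of Fcgr4 and Fcgr3 overlapped.

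The inhibitory receptor Fcgr2b followed another order. It was at 14.1 FPKM (CD), 24.6 (CD+7KC), 13.5 (WD) and 39.99 (WD+7KC), from an estimated 195, 341, 160 and 610 reads. CD and WD overlapped and were the lowest, and both libraries with 7KC stood above them and apart from each other. The log2 fold change with 7KC was 1.56 (interval 1.32 to 1.83) under WD, a 2.96-fold ratio, and 0.80 (interval 0.55 to 1.07) under CD. WD differed from CD by -0.065 (interval -0.37 to 0.25), in contrast with the 3 activating receptors, whose intervals for this comparison lay above 0. WD+7KC exceeded CD+7KC by 0.70 (interval 0.51 to 0.90).

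Set against the summed FPKM of Fcgr1, Fcgr3 and Fcgr4, the ratio of inhibitory to activating receptor transcripts was 1.20 (CD), 1.32 (CD+7KC), 0.567 (WD) and 0.942 (WD+7KC). The ratio was lowest in WD without 7KC, where the activating sum was 23.8 FPKM against 11.7 FPKM in CD. Within each diet the library with 7KC had the higher ratio, for which no counting interval is given, and under CD the step was small. There the log2 fold change of Fcgr2b, 0.80, was near those of Fcgr4 at 0.78 and Fcgr1 at 0.76, with Fcgr3 at 0.54. Under WD that of Fcgr2b was 1.56, against 0.97 for Fcgr4, 0.80 for Fcgr1 and 0.69 for Fcgr3. Against Fcgr3 alone, the receptor with which Fcgr2b shares sequence, the ratio was 2.23, 2.67, 1.18 and 2.17 in the same order of libraries.

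Fcgrt, the neonatal receptor, was at 111 FPKM (CD), 95.7 (CD+7KC), 131 (WD) and 114 (WD+7KC), from an estimated 1909, 1650, 1934 and 2166 reads. CD and WD+7KC overlapped, CD+7KC was below them and WD above. It was the one member that was lower with 7KC under both diets, by a log2 fold change of -0.20 (interval -0.29 to -0.11) under WD and -0.21 (interval -0.31 to -0.12) under CD. After rescaling to equal sums, its value under WD was 0.018 (interval -0.071 to 0.11), which is below the shift of 0.21 that this scaling gave the median gene, and under CD it was -0.17. WD exceeded CD by 0.24 (interval 0.15 to 0.33) and WD+7KC exceeded CD+7KC by 0.25 (interval 0.16 to 0.35).

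B2m, the light chain of FcRn and of class I molecules (chr2:122147686-122153083, plus strand), was at 2508, 2662, 2858 and 2813 FPKM in CD, CD+7KC, WD and WD+7KC. Its transcripts exceeded those of Fcgrt by 22.6 times (CD), 27.8 (CD+7KC), 21.8 (WD) and 24.6 (WD+7KC). B2m was not lower with 7KC in the way of Fcgrt, with log2 fold changes of -0.023 (interval -0.052 to 0.0054) under WD and 0.086 (interval 0.057 to 0.12) under CD.

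Fcer1g, the gamma chain that the activating receptors share, was at 25.0 FPKM (CD), 25.3 (CD+7KC), 42.9 (WD) and 59.4 (WD+7KC), from an estimated 130, 132, 191 and 340 reads. The CD and CD+7KC libraries were alike within counting error, and WD and WD+7KC stood above them in that order. The log2 fold change with 7KC was 0.47 (interval 0.21 to 0.73) under WD and 0.018 (interval -0.34 to 0.38) under CD, the smallest of the members other than Fcgrt in each case. WD exceeded CD by 0.78 (interval 0.45 to 1.11), and WD+7KC exceeded CD+7KC by 1.23 (interval 0.93 to 1.53).

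Tyrobp, the DAP12 adaptor, was at 36.95, 49.7, 57.7 and 107 FPKM in CD, CD+7KC, WD and WD+7KC, from an estimated 147, 199, 197 and 471 reads. Neighbouring libraries in this order overlapped up to WD, and WD+7KC was far above them. With 7KC the log2 fold change was 0.89 (interval 0.65 to 1.14) under WD and 0.43 (interval 0.12 to 0.75) under CD, both larger than for Fcer1g. The ratio of Tyrobp to Fcer1g FPKM was 1.48 in CD and 1.35 in WD, and with 7KC it was 1.97 under CD and 1.81 under WD. WD exceeded CD by 0.64 (interval 0.33 to 0.96) and WD+7KC exceeded CD+7KC by 1.11 (interval 0.86 to 1.35).

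Syk, the kinase recruited to phosphorylated ITAMs, was at 0.833, 1.48, 1.59 and 3.33 FPKM in CD, CD+7KC, WD and WD+7KC, from an estimated 45, 80, 74 and 198 reads. CD was lowest, CD+7KC and WD overlapped, and WD+7KC was separate from all of them. The log2 fold change with 7KC was 1.02 (interval 0.67 to 1.46) under WD and 0.76 (interval 0.28 to 1.39) under CD. The diet differences were 0.86 (interval 0.39 to 1.51) without and 1.12 (interval 0.79 to 1.56) with 7KC.

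**Figure D2:**
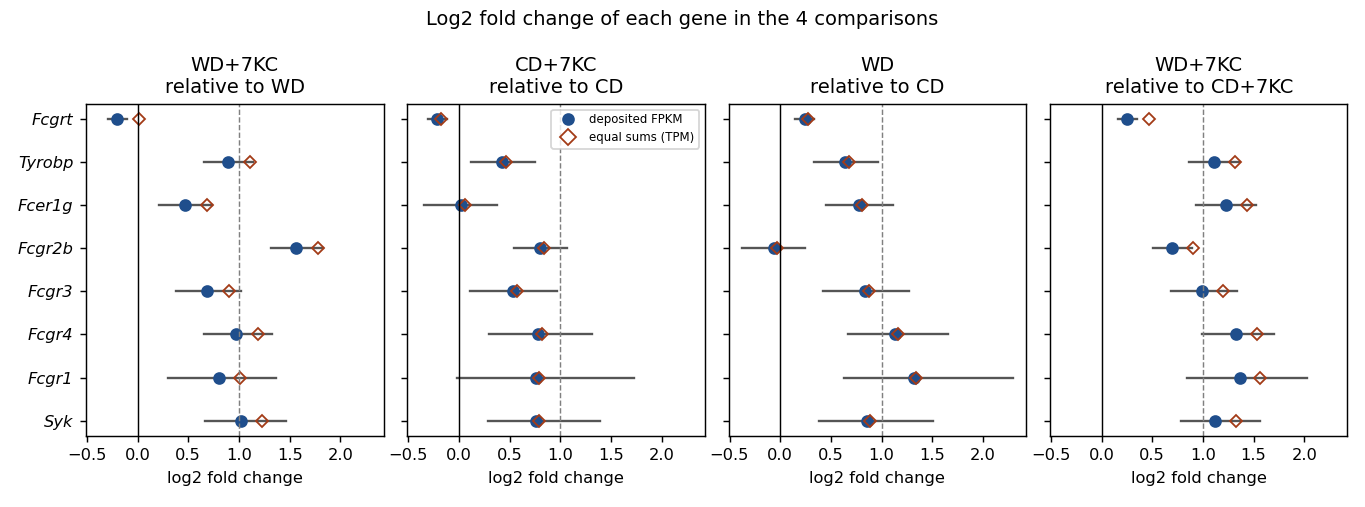
Log2 fold change of each member (x axis) in the 4 comparisons, with filled points for the deposited FPKM, bars for the exact 95% counting interval, open diamonds for values rescaled to equal sums, and a dashed line at 1. In WD+7KC relative to WD, Fcgr2b was farthest to the right at 1.56 and Fcgrt was left of 0 at -0.20 on the deposited scale.

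Taking the members as a group, the comparison of WD+7KC with WD had 2 of 8 members, Fcgr2b and Syk, above a log2 fold change of 1, where 6.21% of the 15753 genes above 0 in either library passed the same threshold. The counting interval lay above 0 for 7 members and below 0 for 1, Fcgrt, against 13.4% and 15.2% of the genes with an interval. The median of the members was 0.85. Of the genes that averaged 1 FPKM or more, 0.572% had a larger rise than Fcgr2b, 2.62% than Syk, 2.95% than Fcgr4 and 3.68% than Tyrobp. For Fcgr1, Fcgr3 and Fcer1g these shares were 4.43%, 5.91% and 9.82%, and for Fcgrt 74.4%. Rescaling to equal sums put 5 members above 1, when the median gene had moved by the 0.21 given above and 8.72% of all genes were above 1.

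Under CD, none of the 8 members was above 1 in CD+7KC relative to CD, where 3.84% of all genes were, and the median of the members was 0.65. The counting interval lay above 0 for 5 members and below 0 for Fcgrt, with 10.3% and 11.6% of all genes as background. The change with 7KC under WD exceeded that under CD by 0.76 on the log2 scale for Fcgr2b (counting SE 0.18), by 0.47 for Tyrobp (SE 0.20) and by 0.45 for Fcer1g (SE 0.22). For Syk, Fcgr4, Fcgr3, Fcgr1 and Fcgrt the differences were 0.26 (SE 0.33), 0.19 (SE 0.30), 0.15 (SE 0.26), 0.049 (SE 0.49) and 0.015 (SE 0.066), each smaller than its SE. With 1 library per group these differences were not tested.

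The diet comparisons share libraries with those of 7KC, and their values for the members are therefore set side by side without further comparison. In WD relative to CD, 2 of 8 members, Fcgr1 and Fcgr4, were above 1, with 5.31% of all genes as background, and the median of the members was 0.81. The interval lay above 0 for 7 members and below 0 for none, against 16% and 17.3% of all genes, and Fcgr2b was the member whose interval included 0. In WD+7KC relative to CD+7KC, 5 of 8 members were above 1 (Fcgr1, Fcgr4, Fcer1g, Syk and Tyrobp), where 8.01% of all genes were, with a median of 1.11. All 8 members had an interval above 0, against 19.6% of all genes, while 19.3% of all genes had an interval below 0.

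In bulk liver, fewer cells of a type and less RNA per cell cannot be told apart, so markers of the cells that carry these receptors are given beside the members. All 15 macrophage and Kupffer cell markers measured were higher with 7KC under both diets, with a median log2 fold change of 0.93 under WD and 0.54 under CD. Adgre1, which encodes F4/80, differed by 1.55 and 0.87, and the scavenger receptor Cd163 by 1.28 and 1.27. The summed level of the list was 322 FPKM (CD), 468 (CD+7KC), 550 (WD) and 1018 (WD+7KC). Of the 7 monocyte markers, 7 were higher with 7KC under WD and 0 under CD, with medians of 0.71 and -0.64 and a summed level between 14.2 and 31.8 FPKM. Only 3 of them averaged 1 FPKM or more, with the same directions and medians of 1.16 and -0.59. The part of either list in the members' changes was not tested.

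Relative to the geometric mean of the macrophage markers (11.2, 17.5, 18.0 and 35.4 FPKM in CD, CD+7KC, WD and WD+7KC), Fcgr1, Fcgr3, Fcgr4, Tyrobp and Syk had a narrower range of ratios than of FPKM, and Fcer1g and Fcgrt are described after them. The ratio of Tyrobp to this mean was 3.30, 2.85, 3.21 and 3.03, and that of Fcgr3 was 0.566, 0.528, 0.634 and 0.522. Syk had ratios of 0.0745, 0.0845, 0.0885 and 0.0942, and Fcgr4 of 0.420, 0.466, 0.579 and 0.580. For Fcgr1 the ratios were 0.0646 (CD), 0.0738 (CD+7KC), 0.108 (WD) and 0.0982 (WD+7KC), higher under WD than under CD. Against the marker Cd68 alone this did not hold, and the change of Fcgr1 relative to Cd68 was 0.077 in WD relative to CD and -0.34 in WD+7KC relative to CD+7KC. Fcer1g was at 2.23 and 2.38 without 7KC and at 1.45 and 1.68 with 7KC, lower in both libraries with 7KC. Fcgrt had the widest range, from 9.92 in CD to 3.23 in WD+7KC.

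The order of Fcgr2b over the libraries was that of the geometric mean of the sinusoidal endothelial markers. All 10 of these markers were higher in WD+7KC than in WD and each by more than 1 on the log2 scale, with a median of 1.54, and 9 of 10 were higher in CD+7KC than in CD, with a median of 0.51. Between WD and CD, 8 of 10 were lower, with a median of -0.22. Kdr, the VEGF receptor 2, differed by 1.95 with 7KC under WD, and Clec4g, a sinusoidal lectin, by 1.504, while Lyve1, a hyaluronan receptor, differed by 1.53 under WD and by -0.46 under CD. The summed level of the list was 74.6 FPKM (CD), 110 (CD+7KC), 61.3 (WD) and 174 (WD+7KC). The ratio of Fcgr2b to the geometric mean of these markers was 2.44, 3.07, 2.86 and 2.93, a narrower range than its ratio to the macrophage markers (1.26, 1.41, 0.748 and 1.13). The part of endothelial cells in the level of Fcgr2b was not tested.

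**Figure D3:**
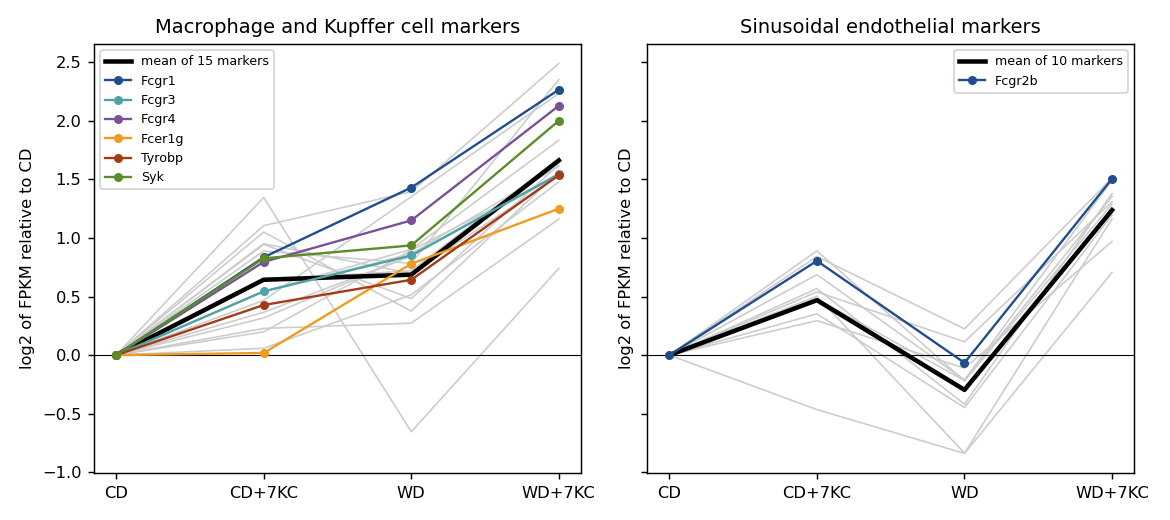
Log2 of FPKM relative to CD (y axis) in the 4 libraries (x axis), with macrophage and Kupffer cell markers on the left and sinusoidal endothelial markers on the right as grey lines, their mean as a black line, and members as coloured lines with points. Fcgr2b is near its CD level in WD, at -0.065, where the endothelial mean is at -0.30, whereas the activating receptors, the adaptors and Syk are above CD there.

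Markers of other cell types that can carry Fc receptors were mostly low. Of the mast cell and basophil markers, 5 of 7 were at 0 in every library, among them Cpa3 and the IgE receptor chains Fcer1a and Ms4a2, and the summed level was at most 1.93 FPKM. Kit, which other cells also make, was the exception, with 0.212 FPKM (WD) and 1.80 FPKM (WD+7KC), which differ by 2.61 on the log2 scale (interval 2.15 to 4.19). Neutrophil markers were higher in WD+7KC than in WD in 3 of 7 cases, with a median of -0.089 and a summed level of 16.3 to 22.2 FPKM. Of the 3 that averaged 1 FPKM or more, 2 were higher, with a median of 0.21, and Mpo was listed at 0 everywhere. S100a8 differed by 1.26 (interval 0.33 to 2.37). It was at 11.8 FPKM (CD), 10.3 (CD+7KC), 4.58 (WD) and 11.1 (WD+7KC), so that WD was the low library, with 12 estimated reads. Of the NK cell markers, whose cells carry Fcgr3, Fcer1g and Tyrobp, 1 of 7 was higher in WD+7KC than in WD and 5 of 6 in CD+7KC than in CD. All 7 were higher in WD than in CD, with a median of 1.74. Their summed level was 0.800 FPKM in CD and 6.405 FPKM in WD. Each had at most 4 estimated reads in CD and 19 in WD, and the intervals of Klrb1c, Klre1 and Eomes included 0. These values stand beside the higher members in WD, and the part of NK cells was not tested. In WD+7KC relative to WD, of the T cell markers 4 of 6 were higher, of the B and plasma cell markers 4 of 7, of the dendritic cell markers 5 of 7 and of the platelet markers 0 of 6, and 5 of 6 T cell markers were higher in WD than in CD. The hepatocyte markers, which bear on Fcgrt, were lower with 7KC in 9 of 10 cases under both diets, with medians of -0.23 under WD and -0.18 under CD, and after rescaling to equal sums 5 of 10 were lower under WD, with a median of -0.014. Their part in the lower Fcgrt was not tested.

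For the gene lists that follow, the share of all genes above 1 is the 6.21% given for WD and the 3.84% given for CD, and the medians over all genes are near 0. The list of receptors that pair with Fcer1g or Tyrobp was mixed over all levels and mostly higher among the better expressed. It also held Clec7a (dectin-1), which has a signalling motif of its own and was among those averaging 1 FPKM or more. Of the 20 with a value in WD or WD+7KC, 12 had the higher value in WD+7KC and 8 the lower. Of these 20, 6 were above 1 and 3 below -1, with a median of 0.34. The 3 below -1 (Gp6, Ncr1 and Klrd1) had at most 12 estimated reads in either library. Among the 6 above 1, Sirpb1a (1 and 8 estimated reads in WD and WD+7KC), Klrk1 (2 and 8) and Pilrb2 (7 and 25) averaged under 1 FPKM. The intervals of Sirpb1a and Klrk1 included 0. Of the 6 receptors averaging 1 FPKM or more, 5 were higher in WD+7KC, with a median of 0.85. Cd300lb and Cd300ld, activating receptors of the CD300 family on myeloid cells, had the largest rises of those averaging 1 FPKM or more, at 1.38 and 1.28, from 1.18 to 3.25 FPKM and from 4.06 to 9.99 FPKM, and Pilrb1 was at -0.17. Under CD 10 of 19 were higher, with a median of 0.33, and 5 of the 6 averaging 1 FPKM or more, with a median of 0.54. The C-type lectin Clec4n (dectin-2) differed by 1.15, from 1.92 to 4.39 FPKM, Pilrb1 by 0.92 and Trem2, the lipid-sensing partner of DAP12, by -0.14.

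Inhibitory receptors with an ITIM, like Fcgr2b, were higher in WD+7KC than in WD in 15 of 16 cases, with 5 above 1 and a median of 0.78. The lectin Clec4a2 differed by 1.16 from 6 and 19 estimated reads, with an interval that included 0 (-0.080 to 2.91). Lilrb4a, a leukocyte immunoglobulin-like receptor, differed by 1.08, and Ceacam1, which hepatocytes also make, by -0.12. Under CD 13 of 16 were higher and 0 were above 1, with a median of 0.34. Of those averaging 1 FPKM or more, Siglece had the largest rise at 0.96, followed by the collagen receptor Lair1 at 0.78 from 2 and 4 estimated reads (interval -1.80 to 4.46), and Ceacam1 was at -0.0044.

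Of 28 kinases and adaptors that act around Syk, 23 were higher in WD+7KC than in WD, with 4 above 1 and a median of 0.48. Was, an actin regulator needed for phagocytosis, differed by 1.64 (0.73 to 2.48 FPKM), the Src family kinase Fyn by 1.29, and Bcl10, which links ITAM receptors to NF-kappa B, by -0.33. Under CD 15 of 28 were higher, with a median of 0.061. Was differed by 1.19 and Bcl10 by -0.40.

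A list of phosphatases, ligases and adaptors, many of which restrain ITAM signals, had 10 of 12 genes higher in WD+7KC relative to WD. Of these genes 4 were above 1, and the median was 0.47. Ptprc, the leukocyte phosphatase CD45, which also activates Src family kinases and is thus not only a restraint, differed by 1.26. The adaptors Dok2 and Sla2 differed by 1.25 and -0.18. Under CD 6 of 12 were higher and the median was 0.0096. Inpp5d, which encodes the phosphatase SHIP1 that Fcgr2b recruits, differed by 0.85, from 0.538 to 1.05 FPKM, Ptprc by 0.28 and Cblb by -0.32.

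The phagocytic NADPH oxidase, which makes superoxide after Fc receptor engagement, was higher in 5 of 5 subunits in WD+7KC relative to WD, with 3 above 1 and a median of 1.15. Cyba, a membrane subunit, differed by 1.29, from 15.9 to 38.9 FPKM, and Ncf1 by 0.81. Under CD 3 of 5 were higher, with a median of 0.23, Cybb at 0.33 and Ncf4 at -0.81.

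The other Fc receptors and Fc-binding proteins, a list that also held B2m, were mostly little expressed in liver. Of the 14 listed, 3 averaged 1 FPKM or more (B2m, Pigr and Trim21). Of 11 with a value in WD or WD+7KC, 5 had the higher value in WD+7KC and 6 the lower. Pigr, which carries polymeric IgA into bile, was at 235, 219, 122 and 88.6 FPKM in CD, CD+7KC, WD and WD+7KC, lower with 7KC under WD by -0.46 and under CD by -0.11 on the log2 scale. Trim21, the cytosolic antibody receptor, differed by -0.29 under WD and 0.14 under CD. A further list held signalling chains of lymphocyte antigen receptors and Hcst, the DAP10 adaptor whose motif is not an ITAM. Of its genes, 3 of 7 were higher in WD+7KC than in WD (Cd3d, Cd3e and Cd79b). The receptor chains Cd3g, Cd247 and Cd79a were lower. The median of the list, -0.35, was the value of Hcst itself, from 5 and 5 estimated reads (interval -2.48 to 1.76). Under CD 6 of 7 were higher, with a median of 0.88 at low levels. Hcst had the highest mean of that list and differed by 0.38 under CD. Of the listed immunoglobulin genes Jchain, the joining chain of IgA and IgM, was analysed here, at 0.143 to 0.478 FPKM.

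**Figure D4:**
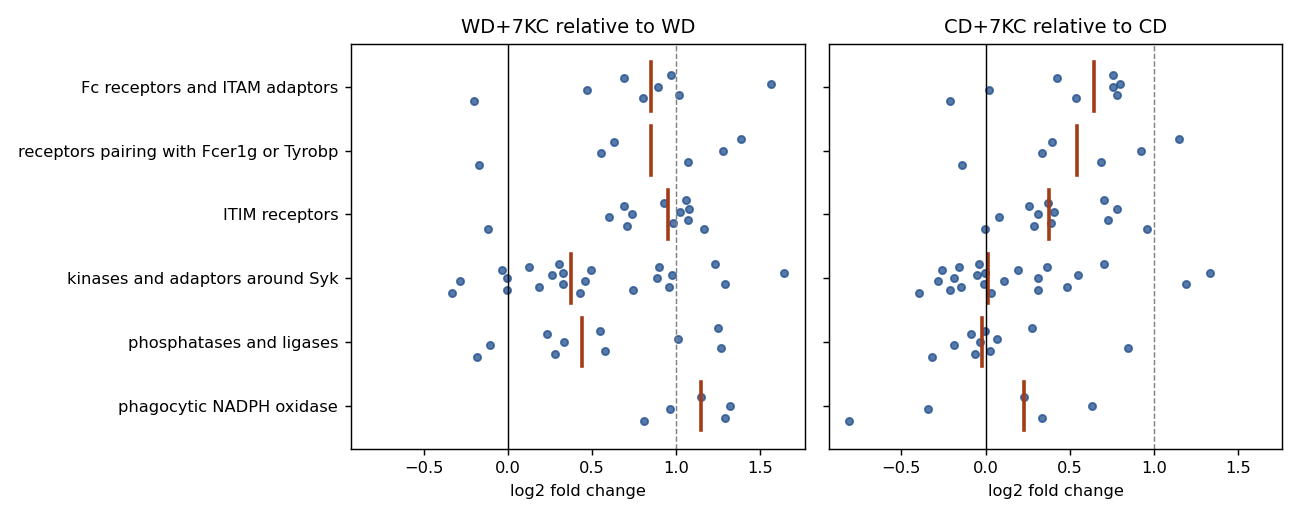
Log2 fold change (x axis) of the genes averaging 1 FPKM or more in each list (rows), with points for genes, a vertical bar for the median of those genes and a dashed line at 1, for 7KC under WD (left) and under CD (right). All 5 NADPH oxidase subunits are right of 0.5 under WD, the lowest at 0.81, and lie on both sides of 0 under CD, the lowest at -0.81.

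The genes whose pattern was most like each member were ranked by the Euclidean distance of their centred log2 values, over 10686 genes and the 4 libraries. With 4 points per gene this is a description. Stab1, an endothelial and macrophage scavenger receptor, was nearest to Fcgr2b at a distance of 0.121, followed by F8 at 0.149, Lilra5, Adam23 and Tek at 0.170. Stab1 had 3.02, 4.87, 2.61 and 8.52 FPKM in CD, CD+7KC, WD and WD+7KC, and the 7KC libraries were high as for Fcgr2b.

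C1qa, a chain of the complement component that binds antibody, was nearest to Fcgr3 at 0.0639, followed by Ppm1h, Nucb2, Ms4a6b and Fads3. Nckap1l, an actin regulator of blood cells, was nearest to Fcgr4 at 0.0707, before Il2rg, Tifab, Lrrc25 and Abcg3. Nckap1l was also among the 5 nearest to Fcgr1, which were Tnfaip8l2 at 0.103, Nckap1l at 0.124, Cd48, Gbp2 and Abcg3. Fcgr4 itself was sixth in the order of Fcgr1, at 0.164, so that these receptors were close in pattern.

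Fcer1g was nearest to Itpripl2 at 0.0517, Tmsb4x at 0.0562, the class II gene H2-Ab1 at 0.0696, Clip2 and Maged2. H2-Ab1 was at 38.9, 38.1, 69.1 and 93.3 FPKM in CD, CD+7KC, WD and WD+7KC, flat between the CD libraries as Fcer1g was. Tyrobp was nearest to Lpxn at 0.0526, then Fabp7, Cttnbp2nl, Fermt3 and Nucb2. Syk was nearest to Il18bp at 0.0314, then Inpp5d at 0.0776, Cfp, Adap1 and H2-M3. Fcgrt was nearest to Ctla2a, Vta1, Tigar, Rab29 and Thap1, none of which is in the lists above.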

How the data were processed

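Total RNA of the liver was made into stranded mRNA libraries, 1 for each of the 4 groups. The authors mapped reads to mm10 and deposited FPKM values, 1 per gene symbol and library; the submitters' processing notes name TopHat2 2.0.13, Bowtie2 2.2.3, SAMtools 0.1.19 and Cufflinks 2.2.1. The gene annotation and the Cufflinks options are not given in the sources used here.

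From the deposited FPKM, log2 ratios were computed with Python 3.11.15 (pandas 2.3.3, scipy 1.17.1) with a pseudocount of 0.1 for genes above 0 in either library, and called above 1. No test was made, as each group had 1 library. Depth was estimated from genes with 1 mRNA, where low FPKM step by whole reads over the mRNA length minus 200 bases; 71.7% to 75.3% of low values came within 0.1 of a whole read. Intervals used the shortest linked mRNA. Fold changes, depths and intervals were tried on simulated data for genes with 1 mRNA. The intervals there used the simulated counts and depths, so reads estimated from FPKM and the choice of the shortest mRNA were not checked. Counts beside a list cover its genes above 0, and medians the same genes. Named were all members, B2m, the 2 largest rises and the largest fall of each list under each diet, where genes averaged 1 FPKM or more, and the 5 nearest genes; some genes that this rule picks are not reported here. Clec4g and Lyve1 were named after their values were seen. The members and lists were chosen with earlier results of these data known. Alternative pseudocounts, scalings, filters and thresholds were tried. Immunoglobulin constant chain genes other than Jchain and the promoter of Tyrobp were not analysed here.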

Additional observations from a re-analysis of the deposited data

Results flagged for a closer look

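The diet went with opposite signs for Fcgr2b without and with 7KC. Its log2 fold change was -0.065 in WD relative to CD and 0.70 in WD+7KC relative to CD+7KC, and the first value has a counting interval that includes 0. Among the genes picked by the naming rule, 5 marker genes had counting intervals for the change with 7KC that lay on opposite sides of 0 under WD and CD. Other markers, such as the remaining monocyte markers, also had opposite signs with an interval that included 0 under at least 1 diet. Chil3, a monocyte marker, was at 1.83 under WD and -2.63 under CD, and Plac8, another, at 0.48 and -0.59. Lyve1, an endothelial marker, was at 1.53 under WD and -0.46 under CD. The hepatocyte genes Apob and Tat were at 0.066 and -0.20 under WD, and at -0.15 and 0.17 under CD. With 1 library in each group none of these differences was tested.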

How the results depend on the processing

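The signs of the members' changes held under every pseudocount, scaling and filter tried, except for Fcgrt in WD+7KC relative to WD, which was 0.018 after rescaling to equal sums. The members above 1 in that comparison were 2 as reported, 1 with a pseudocount of 1 (0.889% of all genes), 5 after rescaling to equal sums (8.72%), 4 when the 20 highest genes were left out of the rescaling (8.21%), and 6 with a threshold of 1.5-fold (14.2%). With that threshold, CD+7KC relative to CD had 4 in place of 0 (10.4% of all genes) and WD relative to CD 6 in place of 2 (13.5%). With a pseudocount of 1, WD relative to CD had 1 in place of 2 (0.962%) and WD+7KC relative to CD+7KC 3 in place of 5 (1.99%), since the larger pseudocount shrinks the changes of low genes. In all 32 alternatives the median of the members stayed between the medians of their lower and upper counting limits. The choice of markers mattered. Against Stab2 alone, the change of Fcgr2b relative to endothelial markers was 0.38 in WD+7KC relative to WD and -0.18 in WD relative to CD, and without Pecam1, Stab1 and Mrc1 it stayed within counting error; these choices and that of the Kupffer cell genes were made after seeing the data. Against Cd68 alone, 17 of 32 changes relative to macrophage markers moved beyond it, that of Fcgr1 in WD+7KC relative to CD+7KC from 0.41 to -0.34, and without the 6 Kupffer cell genes 5 of 32 did. With a pseudocount of 1, 0 to 2 of the 5 nearest genes of a member were kept. The cause was not tested. No paired analysis was possible because each group had 1 library. Depth limits Fcgr1 and Syk most, with 19 and 45 estimated reads in CD.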

Other observations

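In the diet comparison without 7KC, 5.31% of all genes were above 1. In WD relative to CD, 21 of 28 kinases and adaptors around Syk were higher, with a median log2 fold change of 0.28. On the list of phosphatases, ligases and adaptors above, 7 of 12 were higher, with a median of 0.20. The NADPH oxidase had 4 of 5 subunits higher, with a median of 0.40, and the ITIM receptors 13 of 16, with a median of 0.56. The list of receptors that pair with Fcer1g or Tyrobp had 13 of 20 higher and a median of 0.68. Over the 6 that averaged 1 FPKM or more the median was 1.15. Trem2 was at 1.12 (2.92 to 6.46 FPKM). Clec7a, the beta-glucan receptor dectin-1 with a signalling motif of its own, was at 1.24 (5.76 to 13.7 FPKM).

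In WD+7KC relative to CD+7KC, where 8.01% of all genes were above 1, all 5 NADPH oxidase subunits were, with a median of 1.46. Among the kinases and adaptors 24 of 28 were higher, with 11 above 1 and a median of 0.83. Pigr stood against this direction, at -0.95 in WD relative to CD and -1.30 in WD+7KC relative to CD+7KC. Trem2, Clec7a and the Pigr diet values were picked after their values were seen.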
